A study of Ginkgo biloba with 2 samples.

Results

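The names described here are the less conserved microRNA (miRNA) names of Ginkgo biloba leaves whose sequence was 21 bases long and did not begin with U. A name belonged to them if its number was 1000 or higher and if its listed sequence had 21 bases and A, C or G first in every library that listed it, apart from 16 names left out by the rule. Of 723 known names, 119 met it, of which the female library listed 79 and the male library 78. Length, first base and number chose the names, but some of the 16 left out are abundant ones, such as miR1215 with 264560 female and 297034 male reads. Of those 16, miR1310 (415 female and 197 male reads) alone would otherwise have met the rule; the other 15, miR1215 included, had another length or first base in at least 1 library. Only names with 21 bases and A, C or G first in every library listing them were ranked by nearness to the number limit. Closest inside it were miR1024 (2 female reads, no male read) and miR1037 (no female read, 79 male reads). Closest outside it were miR905 (no female read, 1 male read) and miR866 (no female read, 2 male reads). That these names are less conserved is a matter of their high numbers, which the files cannot check.

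The study sequenced small RNA from mature leaves of female and male ginkgo, a gymnosperm with separate sexes. Both groups were leaves of healthy trees of approximately 30 years that grew under natural conditions at the same botanical institute, and no treatment is named. There was 1 library for each sex, with 13193290 female and 12137619 male reads, and the sources do not state whether 1 tree or several gave a library. Each comparison below is therefore between these libraries, without a replicate check and without a p-value. Intervals are exact 95% intervals from the reads and cover counting error only. The tables hold small RNAs alone, so no leaf marker could be checked.

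In plants most miRNAs are cut from hairpin precursors by a Dicer-like enzyme and loaded into ARGONAUTE proteins, which they guide to matching transcripts. In Arabidopsis the first base bears on which ARGONAUTE takes up a small RNA: U is favoured by AGO1, the main miRNA effector, A by AGO2 and C by AGO5. Numbers of 1000 and above were mostly given to miRNAs described in few plant species, and for most of them no textbook target is known. A shared name across distant species rests on sequence likeness and does not by itself say that the ginkgo RNA is the same gene. Bases 2 to 8, called the seed here, are where pairing with the target begins.

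The sequences of the 12 names with the highest mean level show what the group consists of. They are given 5′ to 3′ as DNA letters (T stands for U), with bases 2 to 8 in capitals, and with the library where only 1 listed the name or where the libraries listed different sequences.
miR5268: cCAAGTGGaaaagaatggatt
miR6206: gGCACACGactgcagagcatg
miR6441: aATGTTGAcgaaggacaacaa
miR5085, female: aAGAACTTttttgttggcatg
miR5085, male: aAGAACTCttttgttggcctg
miR7497: aAATTGGActgtgatagggtt
miR6190: cCGGCAAGgaagaagctcatg
miR5224: gGAAGAGCgattgtcgatgaa
miR2624: gAAAGACAcaggttgccggat
miR1077, female: gTGAAATGttcggatcgcggc
miR5211: gGTGGCGTcgcacttgacagg
miR6281, female: gTTGGAATagagagagcgaga
miR6281, male: gTTAGAGAggcgagagaggag
miR1218, male: cCATAGCAgtcgacgcctctg

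No seed is shared among these. Over all 119 names there were 130 distinct sequences with 127 distinct seeds, so the group is not a family, and 2 seeds were each held by 2 names (given further on).

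The group took a small part of the known miRNA reads. Its names held 65172 reads in the female library, 2.64% of all known miRNA reads (interval 2.62 to 2.66%), and 70880 in the male library, 2.90% (2.88 to 2.92%). With miR1310 put back the shares were 2.66% and 2.90%. A few names carried most of this: the highest 3 held 52.3% of the group's female and 65.7% of its male reads. Names beginning with A were most numerous, 71 names, yet held 0.682% of the female and 0.844% of the male known reads. The 20 names beginning with C held 1.01% and 1.27%, mostly through miR5268, and the 26 beginning with G held 0.947% and 0.778%. For the 2 remaining names, miR5304 and miR6196, the libraries listed sequences with different first bases.

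Names with many reads were mostly listed in both libraries, and names with few reads mostly in 1 of them. Of the 119, 38 (31.9%) were in both, 41 in the female library only and 40 in the male library only. Of all 723 known names 339 (46.9%) were in both, while 191 were female only and 193 male only. These shares are not alike: a group name in both libraries had to meet the length and first-base rule in each. The rule by itself can lower the group's share. How much of the difference it accounts for was not tested, and sets under like rules are given further on. In 46 names the library with more reads had at most 3, a count at which a name missing from the other library says little about its level. Among the 13 names with 1000 or more reads in at least 1 library, 9 had the same sequence listed in both, 2 had different sequences and 2 were in a single library (miR1077 and miR1218). Of the 21 names whose higher count was 1 read, 11 were female and 10 male.

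**Figure D1:**
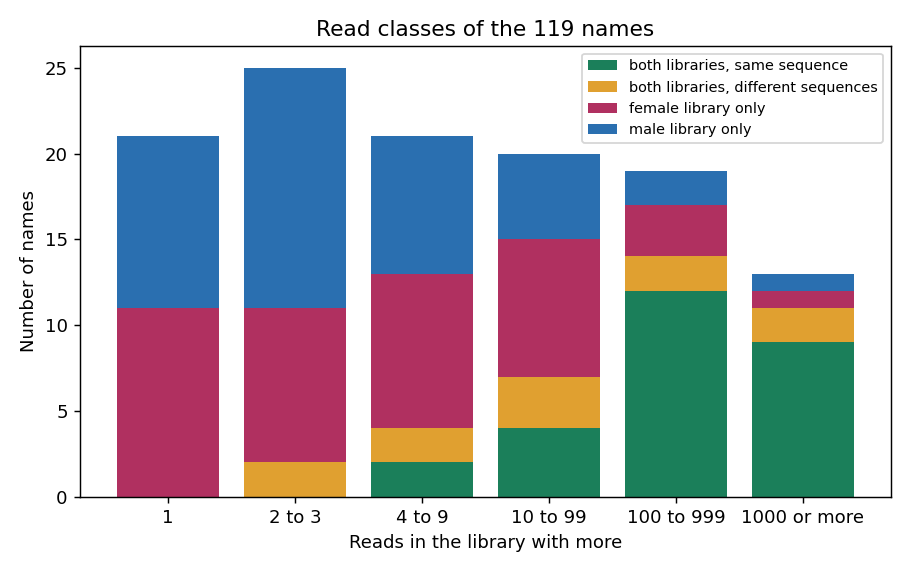
Number of names (y axis) by the reads in the library with more (x axis), with colours for names in both libraries with the same or different sequences and for names in 1 library only. The 21 names at 1 read are all in a single library, whereas 9 of the 13 names at 1000 or more reads have the same sequence in both.

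Levels are given as RPM, reads scaled to the library total, where 1 female read is 0.0758 and 1 male read 0.0824 RPM. Of the 119 names, 28 reached 10 RPM in at least 1 library, 24 in each. Ranked by log2 of (female RPM + 1) over (male RPM + 1), which understates the difference of low names, 6 of the 28 passed 2-fold on the female side, 6 passed it on the male side and 16 did not reach it. Among all 232 known names at this minimum, 29.3% passed 2-fold on the female side, 33.2% on the male side and 62.5% on either. The group's 12 of 28 thus made a lower share, 42.9%, than the known names as a whole, and its median log2 ratio of -0.10 stood beside -0.27 for all. Neither contrast was tested, since a single library per sex allows no test. The rule may also bear on the share, since a name in both libraries had to meet it in each, unlike the known names as a whole. How far it does was not tested. When names that met it in any library were let in, 48 reached the minimum. Of these, 14 passed 2-fold on the female side, 13 passed it on the male side and 21 did not reach it. Over the 117 known names at 10 RPM or more in both libraries the median log2 ratio was -0.23, and the ratios here are not corrected for that shift.

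**Figure D2:**
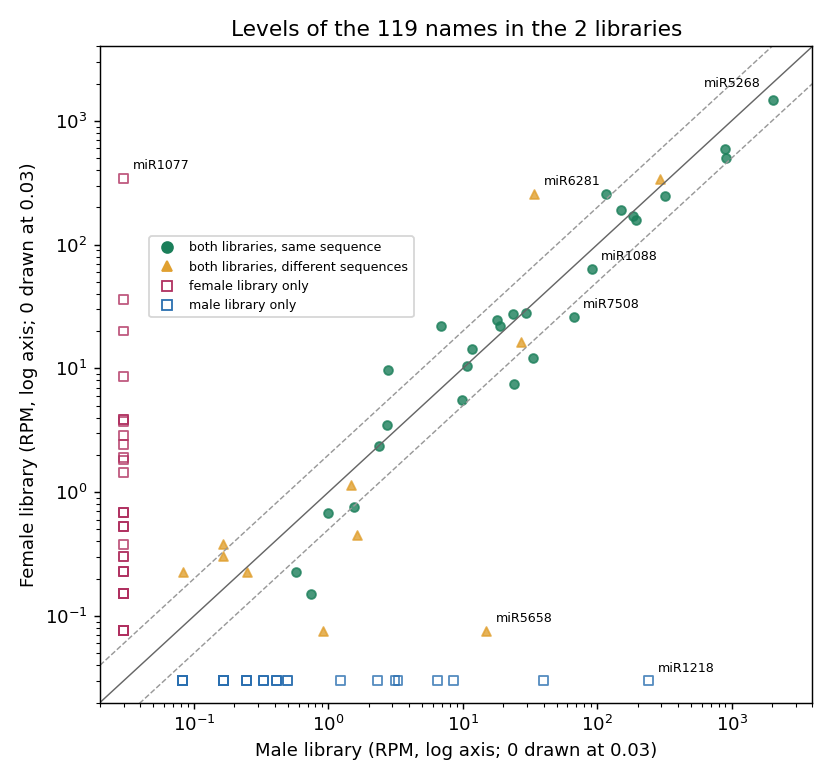
Level of each of the 119 names in the male (x axis) and female (y axis) library in RPM on log axes, with values of 0 drawn at 0.03; the solid line marks equality and the dashed lines 2-fold. Most names with the same sequence in both libraries lie between the dashed lines, while others, such as miR6190 and miR7508, lie beyond them. miR1077 (342 RPM female, no male read) and miR1218 (no female read, 242 RPM male) lie on the edges.

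The highest names were near each other in both libraries. miR5268 was first in each, with 19595 female and 24577 male reads (1485 and 2025 RPM), a male over female ratio of 1.36 (interval 1.34 to 1.39). miR6206 stood at 594 (female) and 900 RPM (male), a male over female ratio of 1.51 (1.47 to 1.56). miR6441 stood at 506 and 910 RPM, a male over female ratio of 1.80 (1.74 to 1.85). These 3 names were all male-sided, all within 2-fold and all with the same sequence in both libraries, and each interval excludes equal levels as far as counting error goes. Under scaling by the median ratio of the 117 names above, their log2 female over male ratios shrank but stayed male-sided. They moved from -0.45 to -0.22 for miR5268, from -0.60 to -0.37 for miR6206 and from -0.85 to -0.62 for miR6441.

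A second tier followed, again with the same sequence in both libraries. miR7497 stood at 249 (female) and 318 RPM (male), a male over female ratio of 1.28 (1.22 to 1.34). miR2624 stood at 158 and 194 RPM, a male over female ratio of 1.23 (1.16 to 1.31). miR5224, at 170 and 186 RPM, had a male over female ratio of 1.09 (1.03 to 1.16), a direction that turned with scaling by the median ratio. miR5211 went the other way, at 189 (female) and 150 RPM (male), a female over male ratio of 1.26 (1.19 to 1.34). All 4 lay well within 2-fold. Under scaling by the median ratio the log2 female over male ratio moved from -0.35 to -0.12 for miR7497 and from -0.30 to -0.07 for miR2624. For miR5211 it moved from 0.33 to 0.56.

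miR6190 was the highest name with the same sequence in both libraries and a difference past 2-fold. It had 3390 female and 1403 male reads (257 and 116 RPM) with a female over male ratio of 2.22 (2.09 to 2.37). Of the 19 names at 10 RPM or more with the same sequence in both libraries, 2 passed 2-fold on the female side and 3 on the male side, 26.3% together. Of all 96 known names of that kind, 7.29% did so on the female and 19.8% on the male side, 27.1% together. The group's share is thus near that of the known names.

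The other female-sided name of these was miR5138, with 293 female and 83 male reads (22.2 and 6.84 RPM), a female over male ratio of 3.25 (2.54 to 4.20). On the male side stood miR7508, with 343 female and 811 male reads (26.0 and 66.8 RPM), a male over female ratio of 2.57 (2.26 to 2.92). miR3626 had 160 and 403 reads (12.1 and 33.2 RPM), a male over female ratio of 2.74 (2.27 to 3.31). The last was miR1428, with 99 and 292 reads (7.50 and 24.1 RPM), a male over female ratio of 3.21 (2.54 to 4.07). With a pseudocount of 10 RPM miR5138, miR3626 and miR1428 no longer passed 2-fold.

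The remaining names of this kind with 10 RPM or more lay within 2-fold. miR6162 had 366 female and 287 male reads (female over male 1.17, 1.002 to 1.37), miR6440 had 322 and 218 (1.36, 1.14 to 1.62) and miR3699 had 191 and 143 (1.23, 0.984 to 1.54). miR5213 had 291 and 228 reads (female over male 1.17, 0.984 to 1.40). For miR3699 and miR5213 the interval, which is not scaled by the median ratio, includes equal levels. Under that scaling their log2 ratios rose from 0.28 to 0.49 and from 0.22 to 0.44. miR5509, with 371 and 361 reads, and miR5253, with 137 and 131, differed by less than counting error, and the sign of their log2 ratio turned under scaling to the known total and under the median ratio. miR1088, with 841 and 1110 reads, had a male over female ratio of 1.43 (1.31 to 1.57).

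Over all 27 names with the same sequence in both libraries, log2 RPM in the female library followed that in the male library with Pearson's r = 0.96 and Spearman's rho = 0.94. This is a description across names of 2 libraries with the same processing, and names are not independent replicates. For all 151 such known names r was 0.96 and rho 0.95.

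**Figure D3:**
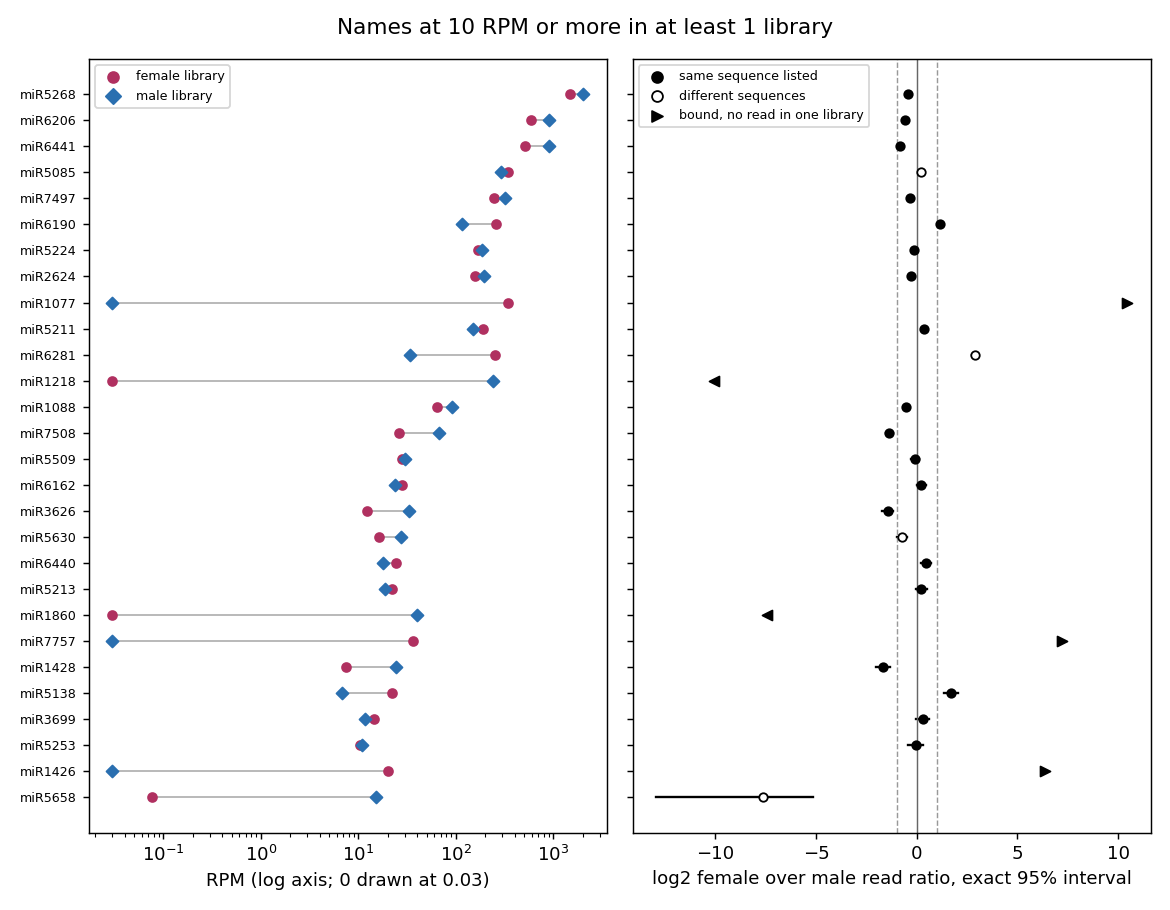
Left, RPM on a log axis in the female (circles) and male (diamonds) library for the 28 names at 10 RPM or more in at least 1 library; right, log2 female over male read ratio with its exact 95% interval, with arrowheads for bounds against 3 reads and dashed lines at 2-fold. The 16 names within 2-fold lie between the dashed lines, on both sides of the middle line, and 5 names have no read in 1 of the libraries.

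In 5 of the 28 names 1 library had no read, which was set to a limit of 3 reads (0.227 RPM female, 0.247 RPM male). miR1077 had 4517 female reads (342 RPM) and was 1385 times the male limit. By the low end of the exact interval it was at least 1126 times the male level. miR1218 had 2938 male reads (242 RPM) and was 1065 times the female limit, or at least 865 times the female level by that low end. Neither sequence shared 16 bases in a row with any sequence listed in the other library.

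The other 3 were lower. miR7757 had 477 female reads (36.2 RPM, 146 times the male limit) and miR1426 had 265 (20.1 RPM, 81.3 times). miR1860 had 484 male reads (39.9 RPM, 175 times the female limit). The low ends of the exact intervals, higher library over the other, were 119, 65.6 and 142 in that order. Of the 81 names found in a single library, 1 shared 16 or more bases in a row with a sequence under another name in the other library. This was miR3705, with 28 male reads, which had 17 bases in common with the female miR7731 (18 reads), so the split of reads between these names is uncertain.
miR3705, male: gTAGTGGTtagcactctggac
miR7731, female: tGGTTAGCactctggactttgaatc

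For 11 names found in both libraries the listed sequences differed, and 4 of them reached 10 RPM. The sources used here do not give how the 1 sequence per name was chosen, so a level of such a name need not refer to 1 RNA. The sequences of miR5085, shown above, differ by T8C and A19C (female base, position from the 5′ end, male base), the former inside the seed. The name had 4490 female and 3533 male reads (340 and 291 RPM), a female over male ratio of 1.17 (1.12 to 1.22).

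miR5630 is a case where the difference lies wholly near the 5′ end, and its sequences are shown for that reason.
miR5630, female: gCTTGAGAgcgttctgacgga
miR5630, male: gTCTCAGAgcgttctgacgga
They differ by C2T, T3C and G5C and share the last 16 bases. The name had 215 female and 331 male reads (16.3 and 27.3 RPM), a male over female ratio of 1.67 (1.41 to 1.996).

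The other pair was further apart in both sequence and level. miR6281 had 3356 female and 414 male reads (254 and 34.1 RPM), a female over male ratio of 7.46 (6.73 to 8.28), with sequences 7 edits apart. The split of reads between miR6281 and a similar name, miR7539, was not tested (given further on). miR5658 had 1 female and 182 male reads (0.0758 and 15.0 RPM), a male over female ratio of 198 with an interval of 35.1 to 7856, and sequences 8 edits apart. The other 7 names with different sequences had at most 20 reads. Among these was miR2275, a name that in grasses stands for a trigger of phased small RNAs in anthers, with 3 female reads and 1 male read and sequences 12 edits apart.

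Below 10 RPM, 5 more names had the same sequence and at least 10 reads in both libraries. miR5522 had 128 female and 34 male reads, a female over male ratio of 3.46 (2.36 to 5.22). miR3437 had 73 and 119 reads, a male over female ratio of 1.77 (1.31 to 2.41). For miR3435 (46 and 33 reads), miR5672 (31 and 29) and miR5668 (10 and 19) the interval of the ratio included equal levels.

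miR1088 resembled a conserved family. Its sequence is set beside those of miR529 and miR156, families that target SPL transcription factors, which in flowering plants control the change from the juvenile to the adult phase.
miR1088: cAGAAGAGagagagcacagca
miR529: cCGAAGAGagagagcacatcc
miR156: tGACAGAAgagagtgagcac
Read from miR529 to miR1088, the changes are C2A, T19G and C21A, with 16 bases in a row in common. miR1088 was the sole name of the group that shared 16 or more bases with another known name in the same library, so the split of reads between it and miR529 is uncertain. miR529 had 30994 female and 14800 male reads, a female over male ratio of 1.93 (1.89 to 1.96), whereas miR1088 had a male over female ratio of 1.43. The names thus lay on opposite sides.

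The predicted targets of miR1088 overlap those of the SPL families. The authors' deposited lists give it 16 target transcripts in each library, of which 12 were also listed for miR156 (12 of 13 of that list). For miR157, 10 of its 12 targets were shared, and for miR529 8 of 9. None of the 5 targets of miR535, which also targets SPL transcripts and shares 14 bases in a row with miR1088, was listed for miR1088. The leaf unigenes CL5613.Contig1 and CL5613.Contig2 were listed for miR1088, miR156, miR157 and miR529 alike. The lists carry no annotation, so these transcripts are not named as SPL genes here, and a list follows from the sequence by prediction and is not a measurement.

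**Figure D4:**
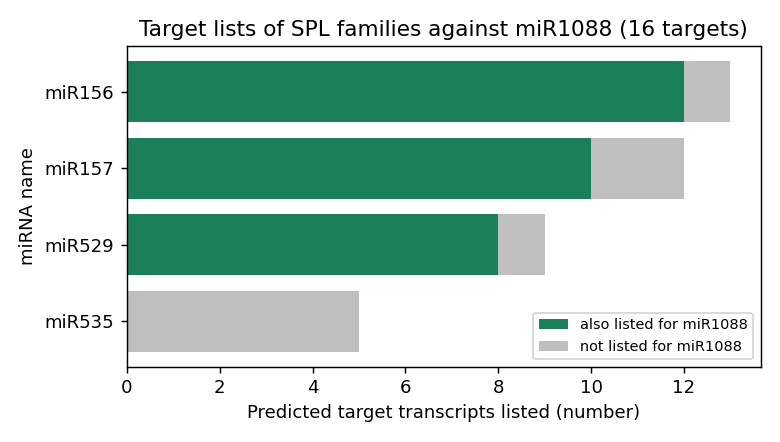
Number of predicted target transcripts (x axis) listed for miR156, miR157, miR529 and miR535 in the female library, split into those that are also and are not listed for miR1088. The shared part is 12 of 13, 10 of 12, 8 of 9 and 0 of 5 targets.

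miR5085 and miR5509 were near-copies of each other.
miR5085, female: aAGAACTTttttgttggcatg
miR5509: aAGAGCTTttctgttggcatg
From miR5509 to the female miR5085 the changes are G5A and C11T. miR5085 had 4490 and miR5509 371 female reads, and in the male library, where the listed miR5085 sequence was 4 edits from miR5509, they had 3533 and 361. The predicted target lists of this pair, 8 and 7 transcripts in the female library, had no transcript in common, although the sequences differ at 2 positions.

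The female miR6281 sequence shared 14 bases in a row with miR1507 and with miR7539, and all 3 of its targets were also listed for miR7539. miR7539 and miR1507 lay on opposite sides. miR7539, with the same sequence in both libraries, had 411 female and 3226 male reads, a male over female ratio of 8.53 (7.70 to 9.48). These reads are nearly the reverse of those of miR6281, with 3356 female and 414 male reads. Whether reads were split between miR6281 and miR7539 was not tested, so the ratio of either name alone is uncertain. miR1507, whose listed sequences differed, had a female over male ratio of 7.04 (6.18 to 8.05).

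Shared seeds were few. Within the group, miR1088 (841 female reads) shared its seed with miR5339 (1 female read), and miR1092 (49 female reads) with miR5492 (2 female reads).
miR5339, female: cAGAAGAGaatctttgcgaga
miR1092, female: gGAAGGAAtgcattggccgtt
miR5492: aGAAGGAAatagatgatcgat
As whole sequences these were unlike, 9 and 8 edits apart, and neither pair had a target in common. Several names shared a seed with a known name outside the group in the same library. miR5224 did so with miR5821 (female), the male miR6281 with miR1440, miR7508 with miR3441 (female) and miR5492 with miR5769 (male). The female miR5304 (5 reads) had the seed of miR170, a conserved family directed at GRAS transcription factors. As whole sequences these were 9 edits apart, and miR5304 had no listed target in that library.
miR7508: cAAGAAAAgcacagtcgggga
miR5304, female: aGATTGAGcatggtgcatggt
miR170, female: tGATTGAGccgtgtcaatatc
The remaining ones were miR5056 with miR5641 (male), and miR5181 with miR5650, miR5767 with miR8024 and miR6136 with miR3520 (female).
miR5056, male: aGGAAGAActggtaataggca
miR5181, female: aTTTTATGtgattggtaggga
miR5767, female: gTGGAGGActttgaaggcgaa
miR6136, female: cGGATGAGtagataaggggta
These last 4 had at most 38 reads in the library concerned. None of the pairs with a name outside the group had a listed target in common.

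Targets were listed by the authors for 54 of the 79 female and 48 of the 78 male names. The median was 2 targets in each library, against 3 for all known names. Of 231 female and 236 male pairs of name and target, 91 were shared, 39.4% and 38.6% of each list. All 18 names with the same sequence and any target had identical lists, which follows from the sequence. Of the 11 names with different sequences, 2 had a target in common between the libraries, miR5085 and miR5630, with 1 each.

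The longest list was that of a barely detected name. miR8135 had 63 listed targets and 2 male reads. After it came miR5668 with 20 in both libraries and miR6196 with 20 in the female library, at 10 and 4 female reads, then miR6440 with 17 in both and miR6170 with 17 in the female library, at 322 and 7 female reads. By contrast miR6206 and miR7497, among the 5 highest names, had no listed target, and neither had miR1077. A single leaf unigene, CL5365.Contig1, was listed for more than 1 name of the group in both libraries, for miR5268, the highest name, and miR5522. The length of a list is not a number of separate genes, since many entries were contigs with the same label. Most entries of miR8135 were contigs labelled CL14. All of those of miR5668 were labelled CL8183 or CL836, and all of those of miR6440 CL147 or CL727.

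Beside the 161 names of the same kind that begin with U, chosen with the same names left out (among them miR1220 and miR1030, which had 21 bases and U first), the group was smaller in reads. Those names held 4.79% of the female and 3.88% of the male known reads. Of their 46 names at 10 RPM or more, 16 passed 2-fold on the female side and 11 on the male side, 58.7% together against 42.9% here, but among names with the same sequence in both libraries the shares were 25.0% and 26.3%. In the group described here 31.9% of names were in both libraries, against 46.9% of all known names, 40.4% of the names beginning with U and 66.7% of 24 names numbered under 1000 that also have 21 bases and no U first. All known names faced no length or first-base rule, whereas the other 2 sets had to meet theirs in every library listing a name. In those 24, which include miR172, directed at AP2-like factors, miR390, a trigger of small RNAs against auxin response factors, and miR529, 9 reached 10 RPM, with 1 past 2-fold on the female and 3 on the male side. None of these contrasts was tested.

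Purine-rich sequences were more frequent here than among names beginning with U. Leaving out the first base, which the rule fixed, at least 75% of the other 20 bases were A or G in 17 of 79 female and 22 of 78 male sequences (21.5% and 28.2%). The shares were 10.6% and 9.73% for the names beginning with U and 14.2% and 15.6% for all known names. The letters GAGAG, read on the listed strand only, were in 7 female and 7 male sequences of the group (8.86% and 8.97%), among them miR1088 and miR6281, against 4.53% and 6.02% of all known sequences. The median share of G and C was 42.9% in both libraries, as over all known names. These shares are descriptions and were not tested.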

How the data were processed

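The authors' deposited level tables, named TPM by them, hold RPM: each value equals the deposited raw read count of the name divided by 1 library total, to within 5e-05 RPM, and 100% of the 875 values above 0 and below 60 RPM were whole reads to within 0.01 read. The deposited count tables give reads and 1 sequence per name, and the deposited target tables give a count and the identifiers of predicted transcripts. The database, the aligner and the target predictor were not given in the sources used here, and genome positions were not analysed.

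Samples were grouped by the labels, 1 library per sex, so no count model or test was run. Computed here, with Python 3.11.15, numpy 2.4.6 and scipy 1.17.1, were log2 ratios with a pseudocount of 1 RPM for names at 10 RPM or more in at least 1 library, exact conditional binomial (Clopper-Pearson) 95% intervals, bounds against 3 reads, edit distances and shared stretches. PCR reads without molecular identifiers are not independent molecules, so intervals and limits cover counting error only. The intervals and the 2-fold call were tested on simulated counts that held counting error only. The bounds, edit distances and shared stretches were not part of that simulation. Names with values were all those at 10 RPM or more, those with the same sequence and 10 or more reads in both libraries, and the 3 with most targets per library with ties. Sequences are those of the 12 highest names and of names sharing a seed or 16 bases, with those of miR5630 and miR5509 and of the names they are compared with added after their values were seen. The relations of miR5085 with miR5509 and of miR6281, and the target overlaps, were picked out after their values were seen. The names and lists were chosen with earlier results of these data known. The alternatives were other pseudocounts, minimums, scalings, thresholds and name rules. Predicted miRNAs were not analysed here.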

Additional observations from a re-analysis of the deposited data

How the results depend on the processing

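No paired analysis was possible because there is 1 library per sex. The counts of 6, 6 and 16 names (higher in the female library, higher in the male library, within 2-fold) stayed the same with a pseudocount of 0.1 RPM, with scaling by the median ratio or the known total, and with read intervals wholly beyond 2-fold, which was added after the data were seen. Without a minimum they were 16, 12 and 91, and with a minimum of 100 RPM 3, 1 and 8. Names with the same listed sequence gave 2 and 3 beyond 2-fold, and names above 0 in both libraries gave 3 and 4. With a threshold of 1.5-fold the counts were 6, 9 and 13. With A, C or G first and 21 bases in any library, 164 names, 48 reached 10 RPM and the counts were 14, 13 and 21. The median log2 ratio of -0.10 turned to 0.12 with scaling by the median ratio and to 0.0026 with the known total, and was -0.21 both with a minimum of 100 RPM and with the wider name rule; with absent names at 3 reads, also added later, it was -0.11. The wider rule gave 4.59% of known female and 3.26% of known male reads, and leaving out miR1088, the name sharing 16 bases with another, 2.61% and 2.85%. The sign turned with scaling by the median ratio for miR5224 (0.10), miR5253 (0.16) and miR5509 (0.14), and with the known total for miR5253 (0.048) and miR5509 (0.026). Of 112 values for single names under 4 alternatives, 104 kept sign and side of 2-fold, 3 fell within 2-fold, all with a pseudocount of 10 RPM, and these 5 changed sign. Names of a few reads are limited by depth: with 1 to 3 reads a name's absence from the other library is not detectable as a difference.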

Other observations

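Some names of very few reads had target lists that fell wholly within those of a better known name. All 3 targets listed for miR5757, which had 2 male reads, were also among the 8 of miR172, the family directed at AP2-like factors, at 2463 male reads, although the sequences were 8 edits apart. In the female library miR7757 (477 reads), miR5056 (6 reads) and miR5339 (1 read) had the same 6 public nucleotide records in their lists, and no leaf unigene was shared among them. These records are not particular to those names: 12 known names outside the group listed all 6 as well. In the male library miR1436 (3 reads) and miR1128 (10 reads) held sequences of which 18 bases in a row were each other's reverse complement. These were singled out with their values in view, and no cause was tested.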
